A study of Mus musculus with 22 samples.

Results

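The 10 genes described here were the 5 NF-κB subunits (Nfkb1, Nfkb2, Rel, Rela and Relb), the feedback inhibitors Nfkbia and Tnfaip3, the nuclear IκB protein gene Nfkbiz and the surface protein genes Cd83 and Icam1. They were taken by name out of 56691 genes in the deposited tables, and all 10 were listed in both tables and tested in every comparison. RNA was sequenced from cells sorted on beads for CD11b, a surface marker of microglia and other myeloid cells (the labels call them monocytes), out of whole brains of CF-1 wildtype mice. There were 22 libraries from 20 animals in 5 groups of 4. On P7 the HIE pups came from litters N5 and N8, and the control pups from litters P6H63 and P6H55. On P14 the HIE animals came from litters P4H1 and P6H12, the control animals from P4H4 and P6H8, and the Hypoxia animals from P6H7 and P6H9. Litters were read from the first part of the animal names, with 2 animals each.

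In the HIE group the dam received bacterial lipopolysaccharide (LPS), which provokes an immune response, in late gestation, and the pups were exposed to a short global hypoxia on the day before P7. Control dams received saline and their pups stayed in normal air. The methods of the study do not describe the group labelled Hypoxia. All 4 P7 HIE pups were labelled male, while every other litter had 1 male and 1 female. The P7 controls carried day labels of 8 and 9 (litter P6H63) and 10 and 11 (litter P6H55), although the methods give P7 for this experiment. Treatment, litter and day label can therefore not be told apart on P7. Sex labels differed only in part, since each P7 control litter held 1 male. No litter held animals of more than 1 treatment, and P7 and P14 animals were in separate tables.

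NF-κB is a family of transcription factors that act as pairs of subunits and are held in the cytoplasm by IκB proteins. Signals from Toll-like, TNF and IL-1 receptors lead to the loss of IκB and let the pairs reach the nucleus, where they switch on inflammatory genes together with genes for their own inhibitors. In microglia, the resident macrophages of the brain, this pathway is a main route from danger signals to cytokine production. Its activity is set largely by protein location, which RNA levels do not measure.

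The upstream sequences of the 10 genes were searched for the κB consensus motif, the DNA element to which NF-κB pairs bind, because it is the feature by which the inhibitors are known as targets of the factors they restrain. The search covered the 300 bases before the annotated transcript start on both strands of GRCm39, and 5 of the 10 genes (50%) held a match, namely Rel, Relb, Nfkbia, Tnfaip3 and Icam1. Among all protein-coding genes 8.81% held one, and among those with a mean of at least 1 CPM 9.87% did. CPM are read counts scaled by library size and a normalization factor per animal (TMM). Only Nfkbia held 2 separate positions, against 1.29% of protein-coding genes. The windows of 3 genes are given on the strand of the gene with the matched bases in capitals, one for an inhibitor, one for a subunit and one for a target. They are the reference sequence and not that of the CF-1 animals. Nfkbia (chr12:55539433-55539732, minus strand), Rel (chr11:23721265-23721564, minus strand) and Icam1 (chr9:20926372-20926671, plus strand) read as follows.
Nfkbia: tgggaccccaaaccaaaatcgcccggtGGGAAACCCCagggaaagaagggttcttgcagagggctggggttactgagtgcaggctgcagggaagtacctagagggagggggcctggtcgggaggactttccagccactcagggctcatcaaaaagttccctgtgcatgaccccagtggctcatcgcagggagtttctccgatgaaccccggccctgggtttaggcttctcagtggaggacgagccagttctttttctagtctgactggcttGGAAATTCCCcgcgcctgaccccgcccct
Rel: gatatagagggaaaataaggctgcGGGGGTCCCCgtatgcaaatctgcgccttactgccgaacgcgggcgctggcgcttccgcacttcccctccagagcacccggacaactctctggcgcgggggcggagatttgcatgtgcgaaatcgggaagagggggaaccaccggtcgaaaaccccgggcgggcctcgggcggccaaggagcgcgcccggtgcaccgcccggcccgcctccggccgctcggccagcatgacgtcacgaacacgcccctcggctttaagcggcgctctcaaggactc
Icam1: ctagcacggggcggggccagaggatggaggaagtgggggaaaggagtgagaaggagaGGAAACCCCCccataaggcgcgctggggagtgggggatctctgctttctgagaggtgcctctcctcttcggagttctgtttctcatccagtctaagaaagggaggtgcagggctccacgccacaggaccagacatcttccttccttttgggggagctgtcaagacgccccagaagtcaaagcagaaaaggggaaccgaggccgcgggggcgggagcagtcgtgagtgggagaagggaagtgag

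The matches in Nfkbia lay 273 to 264 and 29 to 20 bases before the start. That of Rel lay 276 to 267 bases before it, and that of Icam1 243 to 234 bases before it. Relb held GGGGTTTTCC at 37 to 28 bases before its start (chr7:19363451-19363460, minus strand), and Tnfaip3 held GGGACACCCC at 97 to 88 bases (chr10:18891274-18891283, minus strand). No match was found in this window for Nfkb1, Nfkb2, Rela, Nfkbiz or Cd83. A match is a description of the letters and not of binding.

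Library totals ranged from 70191584 to 83469067 counts on P7 and from 29751540 to 46404123 counts on P14, so that 3 counts corresponded to at most 0.101 CPM and every member lay far above this level. The 2 control pups of litter P6H63 stood apart from the other P7 animals. Their mean log2 CPM over 11 microglia markers was 5.96 and 6.58, against 9.16 to 9.35 in litter P6H55 and 9.46 to 9.69 in the HIE pups. Their mean log2 CPM over 10 endothelial markers was 7.06 to 7.34, against 6.13 to 6.14 in litter P6H55 and 5.62 to 5.98 in the HIE pups. The P7 fold change of each gene is thus given against all 4 controls and against each control litter. In such bulk samples, fewer cells of a type and less RNA per cell cannot be told apart.

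Among the subunits, Nfkb1 encodes p105, the precursor of p50. Its level was 177, 196, 181 and 188 CPM in the 4 HIE pups, 91.7 and 74.1 CPM in the controls of litter P6H63 and 166 and 139 CPM in those of litter P6H55. All HIE pups were above all controls, but the distance to litter P6H55 was small. For Nfkb1 the log2 fold change was 0.66 ± 0.24 (SE) against all controls, with an adjusted p-value of 0.154 by edgeR's quasi-likelihood test. It was 1.18 ± 0.11 against litter P6H63 (adjusted p = 3.52e-05) and 0.29 ± 0.11 against litter P6H55 (adjusted p = 0.266).

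Rel encodes c-Rel, a subunit found chiefly in blood and immune cells. It had 151, 189, 145 and 132 CPM in the HIE pups, 37.4 and 21.1 CPM in litter P6H63 and 128 and 131 CPM in litter P6H55. The lowest HIE pup was thus next to both P6H55 controls, and litter P6H63 was far below. For Rel the log2 fold change was 0.96 ± 0.55 against all controls (adjusted p = 0.263), 2.42 ± 0.24 against litter P6H63 (adjusted p = 4.45e-05) and 0.26 ± 0.21 against litter P6H55 (adjusted p = 0.586).

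Rela, which encodes the transactivating subunit p65 and is expressed in most cell types, differed least of the 10 genes from litter P6H63. Its values were 103, 115, 107 and 104 CPM in the HIE pups, 63.6 and 52.9 CPM in litter P6H63 and 99.3 and 92.0 CPM in litter P6H55. On the log2 scale Rela differed by 0.48 ± 0.20 against all controls (adjusted p = 0.172), 0.89 ± 0.09 against litter P6H63 and 0.16 ± 0.09 against litter P6H55. Nfkb2 and Relb, the subunits of the non-canonical branch, had log2 fold changes of 0.63 ± 0.25 and 0.49 ± 0.27 against all controls and of 1.17 ± 0.14 and 1.06 ± 0.16 against litter P6H63. Against litter P6H55 their 95% intervals ran from -0.01 to 0.51 for Nfkb2 and from -0.20 to 0.39 for Relb.

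Larger differences from litter P6H63 were measured for the feedback inhibitors. Nfkbia encodes IκBα, which binds NF-κB pairs and carries them out of the nucleus. It had 430, 487, 401 and 416 CPM in the HIE pups, 94.7 and 63.9 CPM in litter P6H63 and 304 and 392 CPM in litter P6H55. The HIE pups were above all controls, by a narrow margin over the higher P6H55 pup. The log2 fold change of Nfkbia was 1.02 ± 0.53 against all controls (adjusted p = 0.235), 2.47 ± 0.19 against litter P6H63 (adjusted p = 1.19e-05) and 0.32 ± 0.17 against litter P6H55 (adjusted p = 0.379).

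Tnfaip3 encodes A20, a ubiquitin-editing enzyme that stops signalling upstream of the IκB kinases. Its level was 798, 871, 743 and 776 CPM in the HIE pups, 135 and 66.9 CPM in litter P6H63 and 495 and 573 CPM in litter P6H55. The 3 sets of animals did not overlap. Log2 fold changes of Tnfaip3 were 1.33 ± 0.61 against all controls (adjusted p = 0.196), 3.00 ± 0.27 against litter P6H63 (adjusted p = 2.52e-05) and 0.58 ± 0.23 against litter P6H55 (adjusted p = 0.285).

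Nfkbiz encodes IκBζ, an inducible IκB protein that works in the nucleus on secondary response genes. Its values were 730, 878, 837 and 689 CPM in the HIE pups, 135 and 75.5 CPM in litter P6H63 and 543 and 585 CPM in litter P6H55. Again the 3 sets of animals did not overlap, and the log2 fold change was 1.23 ± 0.61 against all controls (adjusted p = 0.217), 2.91 ± 0.24 against litter P6H63 and 0.48 ± 0.21 against litter P6H55 (adjusted p = 0.314).

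Cd83, a surface protein of activated myeloid cells and a marker of early microglial responses, differed most of the 10 genes from either litter. It had 942, 1163, 919 and 868 CPM in the HIE pups, 114 and 64.3 CPM in litter P6H63 and 625 and 485 CPM in litter P6H55. The log2 fold change was 1.59 ± 0.66 against all controls (adjusted p = 0.172), 3.47 ± 0.27 against litter P6H63 (adjusted p = 1.21e-05) and 0.81 ± 0.23 against litter P6H55 (adjusted p = 0.204). DESeq2 gave an adjusted p of 0.0094 for Cd83 against litter P6H55, the only one of the 10 genes it called there, where it called 3.48% of all genes.

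Icam1, which encodes an adhesion molecule for leukocytes that endothelial cells carry too, had 216, 282, 218 and 188 CPM in the HIE pups. It had 87.0 and 44.9 CPM in litter P6H63 and 165 and 191 CPM in litter P6H55, so that the lowest HIE pup was within the range of litter P6H55. For Icam1 the log2 fold change was 0.89 ± 0.41 against all controls (adjusted p = 0.198), 1.79 ± 0.27 against litter P6H63 (adjusted p = 0.000484) and 0.35 ± 0.25 against litter P6H55 (adjusted p = 0.523).

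**Figure D1:**
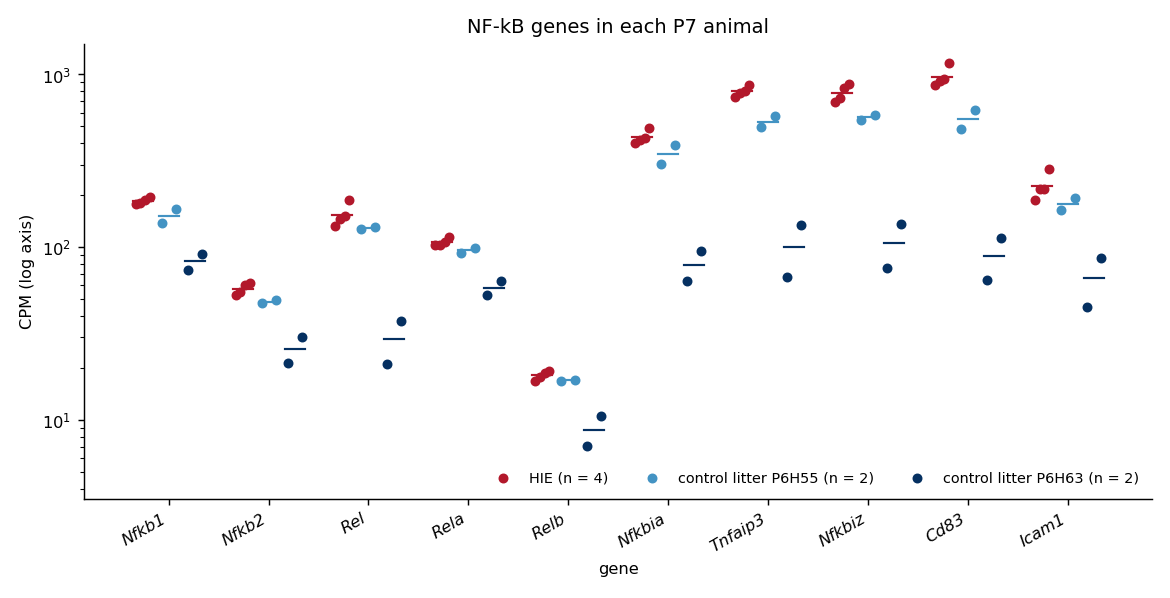
CPM of the 10 genes (log axis) in each P7 animal, with HIE pups in red, controls of litter P6H55 in light blue and controls of litter P6H63 in dark blue; short lines are means. Litter P6H63 lies below the other animals for all 10 genes, and the gap is wider from Nfkbia to Cd83 than for Rela.

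Across the 10 genes, none was called against all 4 controls by edgeR's quasi-likelihood test, where 0.0666% of all genes were called, and 4 (Nfkb1, Nfkb2, Rela and Cd83) had an unadjusted p under 0.05, as did 27.3% of all genes. DESeq2 called none of the 10 but 13.4% of all genes. With male-labelled animals only, their median log2 fold change was 0.87, edgeR called none of the 10 and 0.0559% of all genes, and 4 of the 10 and 14.7% of all genes had an unadjusted p under 0.05. Without control P6H55-7, Nfkb1 (adjusted p = 0.0342) and Rela (adjusted p = 0.0453) were called higher by edgeR. Of 23060 genes tested, 24.2% were then called in either direction, with 1941 higher and 3647 lower. The 2 of 10 were no more than the share in either direction, but more than the share called higher. This call rested on leaving out 1 animal. With all animals the median log2 fold change of the 10 genes was 0.92, against -0.08 over all genes tested. In the CPM values 8 of the 10 genes were higher in every HIE pup than in every control, with Relb and Icam1 overlapping. Of genes with a mean of at least 1 CPM, 11.1% were separated in this direction. The TMM factors in these values were 0.92 to 0.95 in HIE and 0.96 and 0.97 in litter P6H55. The lowest HIE pup had 401 CPM against 392 CPM in the highest control for Nfkbia, and 132 against 131 CPM for Rel. Such narrow separations can depend on the factors, and the count was not repeated with library size alone.

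Against litter P6H63, 10 of 10 genes were called, all higher in HIE. Of all genes tested, 54.9% were called in either direction and 24.9% were called higher, with 6039 higher and 7283 lower. Scaling by library size alone turned this split to 3398 higher and 10826 lower and moved the median of all genes from -0.03 to -0.39, while the 10 genes stayed called and higher. The median of the 10 genes was 2.10 with the standard scaling and 1.74 with library size alone. Their CPM was above litter P6H63 in all HIE pups for 10 of 10 genes, as for 38.8% of genes with a mean of at least 1 CPM.

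Against litter P6H55 none of the 10 genes was called by edgeR, where 0.0824% of genes were called, and 4 (Nfkb1, Tnfaip3, Nfkbiz and Cd83) had an unadjusted p under 0.05, as did 15.9% of all genes. Their median log2 fold change was 0.30, against -0.03 over all genes. In CPM, 8 of the 10 genes were higher in every HIE pup than in both P6H55 pups, against 16.1% of genes with a mean of at least 1 CPM. This count too was made with TMM factors only. Between the HIE litters, Rel, Nfkbia, Tnfaip3 and Cd83 were higher in both pups of N5 than in both of N8, as were 20.9% of genes with a mean of at least 1 CPM.

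**Figure D2:**
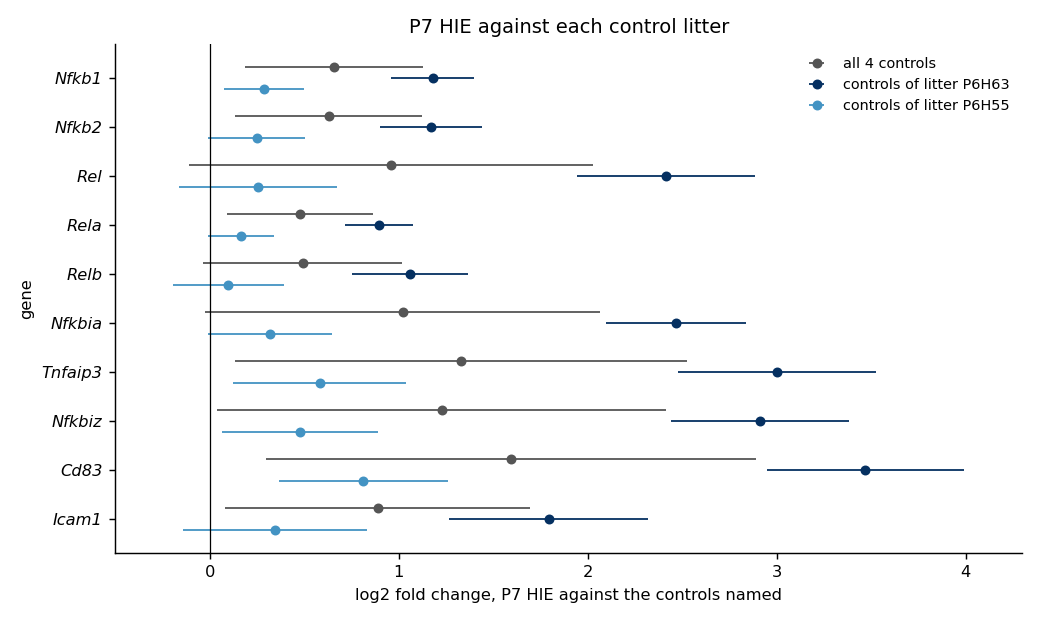
Log2 fold change of each gene in P7 HIE pups (n = 4) against all 4 controls (grey), litter P6H63 (dark blue, n = 2) and litter P6H55 (light blue, n = 2), with 95% intervals as bars. Values against litter P6H63 run from 0.89 for Rela to 3.47 for Cd83, and those against litter P6H55 from 0.10 for Relb to 0.81 for Cd83.

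Both control litters had received the same treatment, yet 10 of 10 genes were called lower in litter P6H63 than in litter P6H55. Of all genes, 47.1% were called in either direction and 23.0% were called lower, with 5841 higher and 5575 lower. With library size alone these were 8900 higher and 3318 lower, and the 10 genes stayed called and lower. The log2 fold change between the control litters was -0.73 ± 0.10 for Rela, -0.89 ± 0.12 for Nfkb1, -2.16 ± 0.26 for Rel, -2.15 ± 0.20 for Nfkbia, -2.42 ± 0.28 for Tnfaip3 and -2.66 ± 0.27 for Cd83. For all 10 genes the control litters did not overlap, as for 38.5% of genes in this direction.

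The members did not share 1 size of difference from litter P6H63. The median log2 fold change of HIE against litter P6H63 was 1.17 for the 5 subunits (0.89 to 2.42), 2.73 for the feedback inhibitors (2.47 and 3.00) and 2.63 for the surface proteins (1.79 and 3.47). Rel was the subunit with a value next to that of Nfkbia. Against litter P6H55 the medians were 0.25 for the subunits, 0.45 for the inhibitors and 0.58 for the surface proteins.

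The mean log2 CPM of Nfkbia and Tnfaip3 minus that of the 5 subunits gave 1 value per animal. It was 2.89 ± 0.07 (SD, n = 4) in the P7 HIE pups, 2.47 and 2.81 in litter P6H55 and 1.32 and 1.61 in litter P6H63. The highest P6H55 pup was thus just above the lowest HIE pup at 2.80, and litter P6H63 was below every other animal, P14 included. On P14 the values were 2.03 ± 0.19 in HIE, 2.19 ± 0.09 in control and 2.29 ± 0.26 in Hypoxia, and the 3 groups overlapped. Levels of P7 and P14 were scaled in separate tables.

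**Figure D3:**
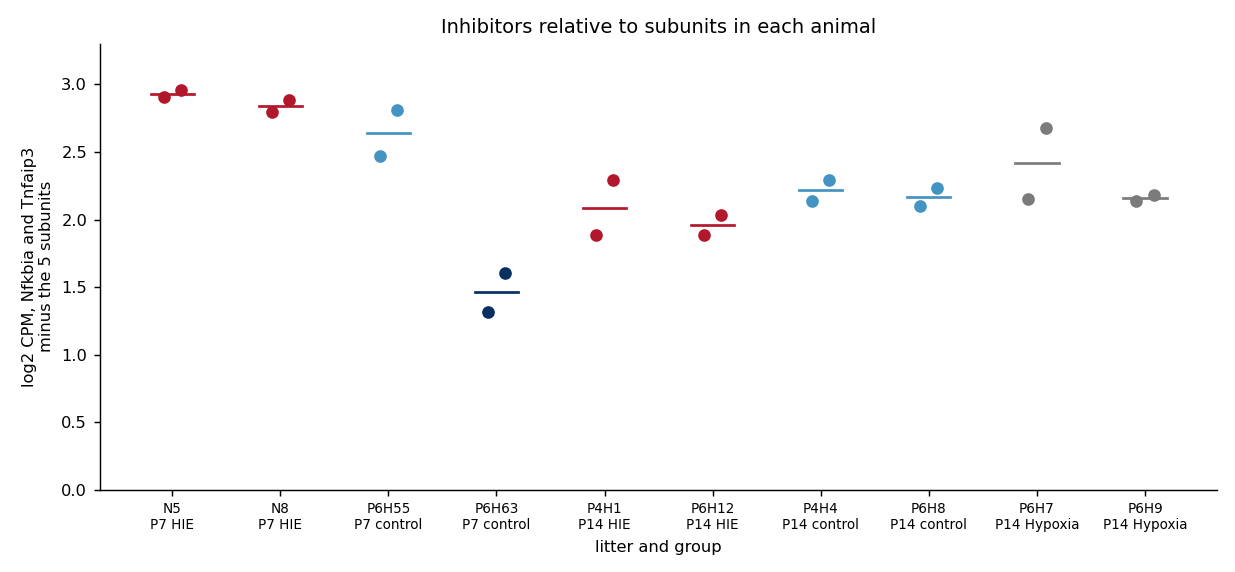
Mean log2 CPM of Nfkbia and Tnfaip3 minus the mean log2 CPM of the 5 subunits in each animal, by litter, with litter means as lines. The P7 HIE pups lie from 2.80 to 2.96, litter P6H55 at 2.47 and 2.81, and litter P6H63 at 1.32 and 1.61.

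Microglia markers moved with these values. All 11 tested markers were called higher in HIE than in litter P6H63, with a median log2 fold change of 3.27, and none was called against litter P6H55, where the median was 0.33. Of all 24259 genes tested against litter P6H63, 24.9% were called higher, and 7283 were called lower. Endothelial markers were called lower against litter P6H63 in 10 of 10 cases, mural markers in 8 of 8, astrocyte markers in 9 of 10 and neuron markers in 7 of 10. Border macrophage markers were called higher in 8 of 8 cases and neutrophil and monocyte markers in 10 of 11. Choroid plexus markers were called lower in 8 of 8 cases, oligodendrocyte markers were higher in 1 and lower in 5 of 10, and lymphoid and dendritic markers were higher in 2 and lower in 1 of 9. Immediate early genes, a class known to react to the handling of tissue, were called higher in 15 of 16 cases against litter P6H63 and in none against litter P6H55. No marker of the other lists was called against litter P6H55 either. Choroid plexus markers had a median log2 fold change of -1.01 there (-1.37 to -0.74). Neutrophil and monocyte markers had -0.47 there, against 2.40 for litter P6H63. Medians of the remaining lists, microglia apart, ran from -0.32 to 0.16 against litter P6H55. The microglia marker mean is used as a covariate below, in a fit that cannot separate it from litter P6H63. The part of the other cell markers and of the handling markers in the NF-κB differences was not tested.

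The comparison with all 4 controls was refitted with the microglia marker mean as a covariate. This mean was far lower in litter P6H63 than in every other P7 animal. The fit therefore cannot tell the marker mean from that litter, and no part of the differences is assigned to either. The median log2 fold change of the 10 genes was then 0.14. None was called by edgeR, where 0.0888% of all genes were called. At an unadjusted p under 0.05 there were 2 of the 10 and 15.0% of all genes. Per animal, the log2 CPM of Rela minus the microglia mean was -2.81 ± 0.08 in HIE, -2.71 and -2.63 in litter P6H55 and -0.59 and -0.24 in litter P6H63. For Nfkb1 it was -2.02 ± 0.09 in HIE, -2.04 and -1.97 in litter P6H55 and -0.06 and 0.25 in litter P6H63. These subunits were therefore high in litter P6H63 relative to the microglia markers although low in CPM. Tnfaip3 differed far less on this scale, with 0.08 ± 0.02 in HIE, -0.40 and 0.0027 in litter P6H55 and 0.10 and 0.49 in litter P6H63. The other inhibitor, Nfkbia, had -0.80 ± 0.03 in HIE, -1.10 and -0.54 in litter P6H55 and -0.02 and 0.04 in litter P6H63. Rel had -2.30 ± 0.13 in HIE, -2.35 and -2.13 in litter P6H55 and -1.56 and -1.36 in litter P6H63. Nfkbia and Rel were thus also high in litter P6H63 on this scale. Cd83 had 0.36 ± 0.10 in HIE, -0.24 and -0.06 in litter P6H55 and 0.05 and 0.24 in litter P6H63, and its HIE pups were above both litters.

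Other genes of the pathway, from lists written by role, gave called genes against litter P6H63 and none against all 4 controls or litter P6H55. Against litter P6H63, 54.9% of all genes were called, and 24.9% were called higher. Of 7 other IκB family genes, 6 were higher, among them Nfkbid (2.86 ± 0.36) and Nfkbie (1.93 ± 0.18), which encode IκBNS and IκBε. Among 31 kinases and adaptors 26 were higher and 2 lower, with Card9 (2.91) and Map3k8 (2.23) at the top and Ikbke (-0.49) and Traf3 (-0.27) lower. Among 20 negative regulators 12 were higher and 3 lower, with Zfp36, which encodes an mRNA-destabilizing protein, at 2.60 and Traf1 at -1.42. Among 18 receptors 14 were higher and 2 lower, with the nucleic acid sensors Tlr9 (3.31) and Tlr7 (3.28) higher and Cd40 (-1.05) and Il1r1 (-0.84) lower. The control litters differed in the same lists. In litter P6H63 against litter P6H55, 5 of 7 IκB family genes and 24 of 31 kinases and adaptors were called lower. So were 10 of 20 negative regulators and 14 of 18 receptors, against 23.0% of all genes. Called higher there were 0, 2, 3 and 2 genes of these lists.

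Of 27 tested classic targets 21 were higher and 4 lower in HIE than in litter P6H63, where 24.9% of all genes were called higher. Between the control litters, 19 of the 27 were called lower and 3 higher in litter P6H63 than in litter P6H55. The cytokine Il1a (3.75) and the chemokine Ccl4 (3.54) were the highest. The adhesion molecule Vcam1, which endothelial cells also express, was lower at -1.55, unlike Icam1, and Nos2 was lower at -1.36. Mean levels of Vcam1 were 30.8 CPM in HIE, 91.3 CPM in litter P6H63 and 40.3 CPM in litter P6H55.

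Per kilobase of exon, levels could be compared between genes. In the P7 HIE pups they were highest for Cd83 (319 ± 42.7 CPM per kilobase, SD, n = 4), Nfkbia (224 ± 19.3), Nfkbiz (140 ± 15.8) and Tnfaip3 (82.1 ± 5.56). Icam1 followed with 45.5 ± 8.07. Of the subunits Rela had the highest level, at 32.7 ± 1.65, then Rel at 19.9 ± 3.13, Nfkb1 at 14.4 ± 0.65, Nfkb2 at 7.26 ± 0.52 and Relb at 3.56 ± 0.21. None of these neighbours in the order overlapped between pups. In litter P6H63 Nfkbia was highest, at a mean of 41.0 against 29.2 for Cd83, with overlapping pups, and Rela at 17.8 was above Tnfaip3 at 10.4. In P14 controls Cd83 (104 ± 23.5) and Nfkbia (101 ± 8.69) were highest and overlapped. These lengths are of merged exons, and isoforms shorter than these would have higher levels. Merged exons had 12848 bases in Nfkb1 and 3274 in Rela. In CPM the HIE pups had a mean of 186 for Nfkb1 and 107 for Rela. The order of the subunits can therefore change with the length used.

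On P14 none of the 10 genes was called by edgeR in any of 3 comparisons, and DESeq2 called none. Of all genes edgeR called 0.00478% in HIE against control, 0.00955% in Hypoxia against control and 0.00955% in HIE against Hypoxia, and DESeq2 called 2.34%, 0.783% and 0.0716%. At an unadjusted p under 0.05 there was 1 member in HIE against control, 0 in Hypoxia against control and 1 in HIE against Hypoxia, Nfkbiz in both cases. The shares of all genes at this threshold were 9.87%, 9.53% and 4.53%, so that 1 of 10 was near the background. All 10 genes overlapped between each pair of groups, as did most genes, since 2.85% were above and 3.13% below in HIE against control and fewer in the other pairs.

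Nfkbiz had 105, 165, 122 and 159 CPM in P14 HIE, 245, 161, 159 and 269 CPM in control and 187, 186, 182 and 146 CPM in Hypoxia. The lower control animals were within the range of HIE and were the female of each control litter. The control males had 245 and 269 CPM. In HIE the females had 165 and 122 CPM and the males 105 and 159 CPM. A difference by sex was not tested. The log2 fold change of Nfkbiz was -0.60 ± 0.21 in HIE against control (adjusted p = 0.355) and -0.37 ± 0.15 in HIE against Hypoxia (adjusted p = 0.999).

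Nfkbia had 135, 225, 155 and 153 CPM in P14 HIE, 196, 211, 173 and 204 CPM in control and 286, 173, 180 and 201 CPM in Hypoxia. A single HIE animal was above all controls and the other HIE animals were below them. The 95% interval of the difference ran from -0.53 to 0.07 in HIE against control and from -0.21 to 0.40 in Hypoxia against control. For Tnfaip3 these intervals were -0.53 to 0.27 and -0.42 to 0.38, and for Cd83 -0.62 to 0.30 and -0.39 to 0.36. The subunits had narrower ones, with -0.01 to 0.32 and -0.03 to 0.28 for Nfkb1 and -0.21 to 0.19 and -0.26 to 0.07 for Rela. Fold changes near those measured against litter P6H63 on P7 were outside the intervals of all these genes.

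**Figure D4:**
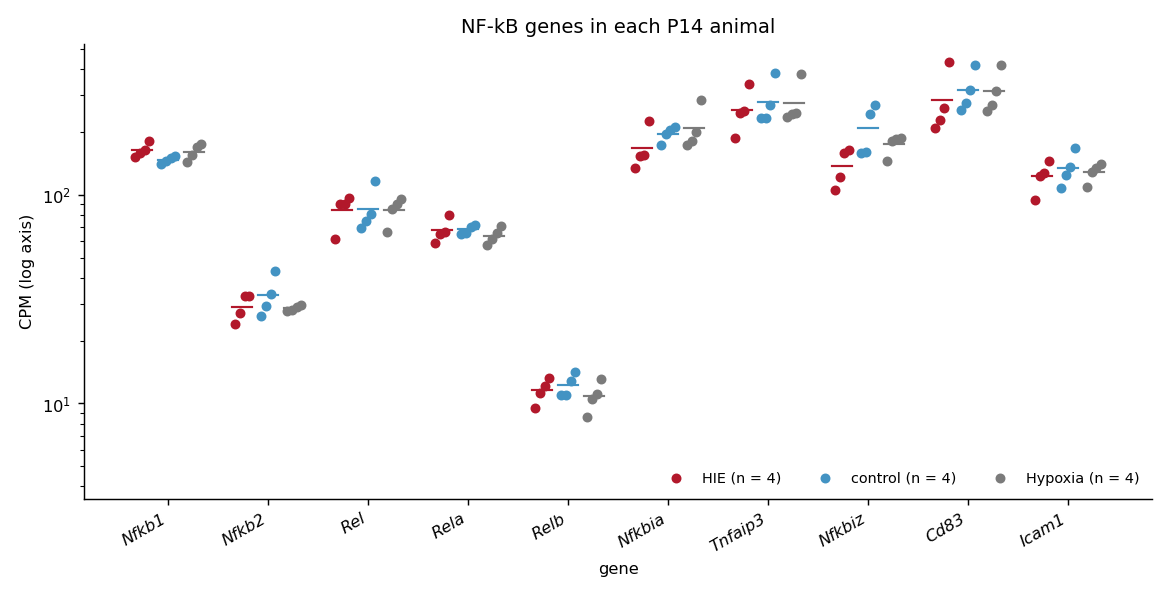
CPM of the 10 genes (log axis) in each P14 animal, with HIE in red, control in blue and Hypoxia in grey (n = 4 each); short lines are means. The 3 groups overlap for every gene, with the widest offset of HIE from control for Nfkbiz.

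The HIE difference on P7 minus that on P14 was estimated with all controls of each day. None of the 10 genes was called by edgeR, where 0.00405% of genes were called, or by DESeq2, which called 2.73% of all genes. At an unadjusted p under 0.05 there were 6 of the 10 (Nfkb2, Nfkbia, Tnfaip3, Nfkbiz, Cd83 and Icam1) and 13.9% of all genes. The difference was 1.82 ± 0.66 on the log2 scale for Nfkbiz (adjusted p = 0.248) and 0.48 ± 0.23 for Rela (adjusted p = 0.37). Day and table cannot be told apart, and this contrast contains litter P6H63. In CPM, 9 of the 10 genes were higher in every P7 HIE pup than in every P14 HIE animal, with Nfkb1 overlapping, against 34.4% of genes with a mean of at least 1 CPM.

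Over the 12 P14 animals, the genes whose log2 CPM followed Nfkbia most closely among 16905 genes were G530011O06Riky (Pearson r = 0.90), Plekha4 (0.89), Cited2 (0.86), Junb (0.85) and Klf6 (0.84). Of the members, Cd83 (0.81) and Tnfaip3 (0.77) were nearest to Nfkbia, and Nfkb1 (0.31) and Relb (0.23) were among the farthest. For Nfkb1 the closest genes were Abca9 (0.95), Pold3 (0.95), Nrm (0.95), Rab3il1 (0.94) and Ifngr2 (0.94), and the nearest member was Rela (0.48). These animals share litters, and the values are a description.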

How the data were processed

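RNA of CD11b+ cells was sequenced by the authors after removal of ribosomal RNA. Per the labels, FastQC, STAR and RSEM were used with GRCm39; versions and the strand setting are not given in the labels. The values are expected counts per gene, deposited by the authors without scaling. They were summed over the libraries of 1 animal (2 animals had 2 libraries) and rounded to whole numbers. Of 56691 genes, 56017 matched GENCODE M39, which gave symbols, positions and exon lengths. RSEM divides reads that match several genes.

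Groups came from the treatment and day labels, with the P7 controls placed by the methods of the study. The test was edgeR 4.0.16 (quasi-likelihood, TMM, its filter on low counts, Benjamini-Hochberg adjustment, threshold 0.05) in R 4.3.3, with DESeq2 1.42.0 as an alternative. Contrasts with single P7 control litters used all 8 P7 animals in 1 fit. The SE was the fold change over the square root of F, and intervals used 1.96 SE. This normal quantile is smaller than that of the test, so these intervals are narrower than 95%. In P7 HIE against control, that of Tnfaip3 was 0.13 to 2.53 at an unadjusted quasi-likelihood p of 0.0604. CPM used TMM factors per table, and log2 CPM a prior count of 2. P-values measure the spread between animals, and littermates share a dam. Each control litter held 2 pups, so p-values against a single litter do not measure the spread between control litters. Simulated counts were used to test the scripts.

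The 10 genes and all lists were chosen with earlier results of these data known. Genes named from the pathway lists were up to 2 per list and direction with the largest fold change among those called, not all of which are printed. Correlations list the 5 closest genes. Fcrls, 1 of 12 listed microglia markers, was not matched by name and not used here. Alternatives were another normalization (RLE), library size alone, no filter, DESeq2, other sets of animals in the fit, a covariate and leaving out each animal.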

Additional observations from a re-analysis of the deposited data

Results flagged for a closer look

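Within groups of 4, 3 of 50 sets of values of a member had 1 animal far from the rest by Dixon's test, and chance flags about 1 in 20. In P14 HIE, Rel was 61.5 CPM in animal P4H1-1M, against 90.6 to 96.3 CPM in the others. In P14 Hypoxia, Tnfaip3 was 381 CPM in animal P6H7-16M, against 236 to 246 CPM in the others. In the same group Nfkbiz was 146 CPM in animal P6H7-8F, against 182 to 187 CPM in the others. No member was flagged on P7, where the control litters form 2 pairs, a pattern this test does not flag.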

How the results depend on the processing

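In HIE against litter P6H63 and between the control litters, the 10 genes stayed called and in the same direction under every alternative run. Over all comparisons, 1061 of 1110 single-gene values kept their direction and side of the threshold, 3 became called and 46 changed sign, 2 of them in P7 HIE against control and 10, 14 and 20 in the P14 comparisons (HIE against control, Hypoxia against control and HIE against Hypoxia). Where not stated, the cause was not tested. No paired analysis was possible because the replicate numbers follow accession order and no litter held more than 1 treatment.

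DESeq2 called 3024 genes in P7 HIE against control, 844 against litter P6H55 (1 member, Cd83), 490 in P14 HIE against control, 164 in Hypoxia against control, 15 in HIE against Hypoxia and 674 for the difference between days. With no filter on low counts, edgeR called 66 genes against litter P6H55, 3 in P14 HIE against control and 5 in HIE against Hypoxia. With all 3 P14 groups in the fit it called 0 in each P14 comparison, with the name prefix as a block 2 in HIE against control, and with P6H animals only 0 in Hypoxia against control.

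Leaving out each animal in turn gave 10 to 5588 called genes and 0 to 2 members in P7 HIE against control. The upper values came without control P6H55-7, when Nfkb1 and Rela were called higher and 24.2% of all genes were called in either direction. The same omission gave 1739 genes against litter P6H55 (lowest 11) and 1200 for the difference between days (lowest 0). The ranges were 0 to 6 genes in P14 HIE against control, 1 to 7 in Hypoxia against control and 1 to 3 in HIE against Hypoxia.

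In P7 HIE against control, the microglia covariate moved the log2 fold change of Rel from 0.96 to -0.0064 and that of Relb from 0.49 to -0.024. That covariate cannot be told apart from litter P6H63. In P14 HIE against control Rel was 0.015 and Rela 0.0083 with no filter, and Rel 0.0018 with the name prefix as a block. In Hypoxia against control Rel was 0.0015 with RLE normalization and with DESeq2. In HIE against Hypoxia Rel was 0.0027 with all P14 groups in the fit, and Nfkb1 -0.051, Rel 0.12 and Rela -0.044 with P6H animals only. Leaving out single animals, P14 HIE against control ranged from -0.10 to 0.17 for Rel, -0.10 to 0.048 for Rela and -0.29 to 0.057 for Tnfaip3. Hypoxia against control ranged from -0.10 to 0.18 for Rel, -0.085 to 0.18 for Nfkbia, -0.21 to 0.17 for Tnfaip3, -0.18 to 0.15 for Cd83 and -0.15 to 0.064 for Icam1. HIE against Hypoxia ranged from -0.050 to 0.051 for Nfkb1, -0.058 to 0.084 for Nfkb2, -0.12 to 0.11 for Rel, -0.026 to 0.13 for Rela, -0.032 to 0.17 for Relb, -0.30 to 0.069 for Tnfaip3, -0.45 to 0.013 for Cd83 and -0.18 to 0.014 for Icam1.

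Control litters held 2 pups and groups 4 animals, and no comparison of depth with animal number was run.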
